A study of Mus musculus with 4 samples.

Results

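The genes described here are 40 genes of meiosis, the piRNA pathway and germ cell identity, out of 19938 genes measured on Affymetrix arrays in mouse embryonic stem cells. They were taken by symbol from the platform's annotation, and each gene was read from the probe set with the highest mean signal. By role they comprise 7 genes of the synaptonemal complex and chromosome axis, 3 of meiotic cohesin, 6 of meiotic recombination, 5 germ cell regulators, 14 of the piRNA pathway and 5 further germ cell genes. All 40 were measured, and 39 had 1 probe set. Hormad1 had 2.

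The cells were of the E14 line and were infected with a lentivirus carrying an shRNA against Usp22 or, as control, against Luc, with 2 arrays per group. Usp22 is the deubiquitinating enzyme of the coactivator complex SAGA. Culture was feeder-free and on gelatin for both groups. The medium held 20% FBS, LIF, 1 µM of the MEK inhibitor PD0325901 and 3 µM of the GSK3 inhibitor CH99021. The labels do not state separate cultures for the replicates and name no clone, shRNA sequence or time after infection. The p-values therefore rest on the spread between these arrays alone, pooled over all genes, which may be technical.

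In meiosis, homologous chromosomes are held by the synaptonemal complex along an axis of cohesin and HORMA-domain proteins while programmed DNA breaks are repaired into crossovers. piRNAs are small RNAs that guide PIWI proteins to silence transposons in the germ line, with Tudor-domain proteins as scaffolds. In embryonic stem cells many of these genes are held down by DNA methylation and by repressor complexes that contain E2F6, MGA and MAX, and some of them are transcribed at low levels.

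Usp22 itself fell, from log2 signals of 9.41 and 9.36 in controls to 8.23 and 8.29 in depleted cells (log2 fold change −1.12, limma adjusted p = 0.00826). The call was lost without depleted replicate 1 (−1.09) and without depleted replicate 2 (−1.15), as were the calls of all genes that rose. Control replicate 2 stood apart. Its Pearson correlation across genes was 0.941 with the other control array and 0.877 and 0.908 with the depleted arrays, against 0.978 between the depleted arrays. Control replicate 1 correlated with the depleted arrays at 0.951 and 0.974, more closely than with its own replicate. By this measure the 2 controls did not group together. All 10 embryonic stem cell markers examined lay above the receptor background, which is the 95th percentile of the mean signals of 1190 olfactory and vomeronasal receptor genes, 6.99 on the log2 scale. Their log2 fold changes ran from −0.64 (Klf4) to 0.59 (Sox2), and 0 passed the limma test, beside 2.62% of all genes that rose and 0.105% that fell. Both depleted arrays lay above both controls for 4 of the 10 and below them for 4, beside 27.4% and 33.3% of all genes. In the limma fit the prior degrees of freedom were infinite, so all genes shared a standard error of 0.27. A p therefore followed from the size of the change alone, whatever the gene's own replicate spread. The smallest change that passed (adjusted p under 0.05 by Benjamini-Hochberg across the 19938 genes) was 0.86 in size. With 2 arrays a group, 0.333 is the smallest p that exact permutation allows.

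Of the 40 germline genes, 6 rose and 0 fell after Usp22 depletion. They were Gtsf1 and Mael of the piRNA pathway, the axis and synaptonemal complex genes Hormad2 and Sycp3, the meiotic cohesin gene Smc1b and the germ cell regulator Prdm1, with log2 fold changes from 0.97 to 1.36. All 6 had a control mean at or below the receptor background, so the folds given are ratios of array signal and not of RNA level. The 6 make 15% of the members, beside 2.62% of all genes that rose and 0.105% that fell. The members were listed with earlier results of these data known, including the increase of Gtsf1. These shares and those below are therefore descriptions and no test of the list. In this bulk RNA, a change in the number of cells that express a gene and a change in RNA per cell cannot be told apart. A further 5 members (Tex15, Mov10l1, Msh4, Tex14 and Tex101) lay higher without overlap between the groups and by at least 1.5-fold, but did not pass the test. With the 6 that passed, 11 members (27.5%) met that description in the higher direction, beside 12.1% of all genes, and 0 in the lower direction, beside 3.35%. At an unadjusted p under 0.05, 13 members were higher and 1 lower, beside 15.4% and 6.63% of all genes (limma).

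The members did not move as a block. By the sign of their log2 fold change, 24 were higher and 16 lower, beside 8498 and 11440 of all 19938 genes. The groups did not overlap for 17 members that lay higher and 7 that lay lower, beside 27.4% and 33.3% of all genes, and overlapped for 16. The median log2 fold change of the members was 0.16, with a range from −0.58 to 1.36, and that of all genes was −0.12. With log2 of the deposited values and no scaling, these medians were 0.02 and −0.24, and median centring of the arrays gave 0.16 and −0.09. The signs of 3 members (Taf7l, Tdrd5 and Tdrd6) turned on the unscaled values, and none of these passed the test.

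**Figure D1:**
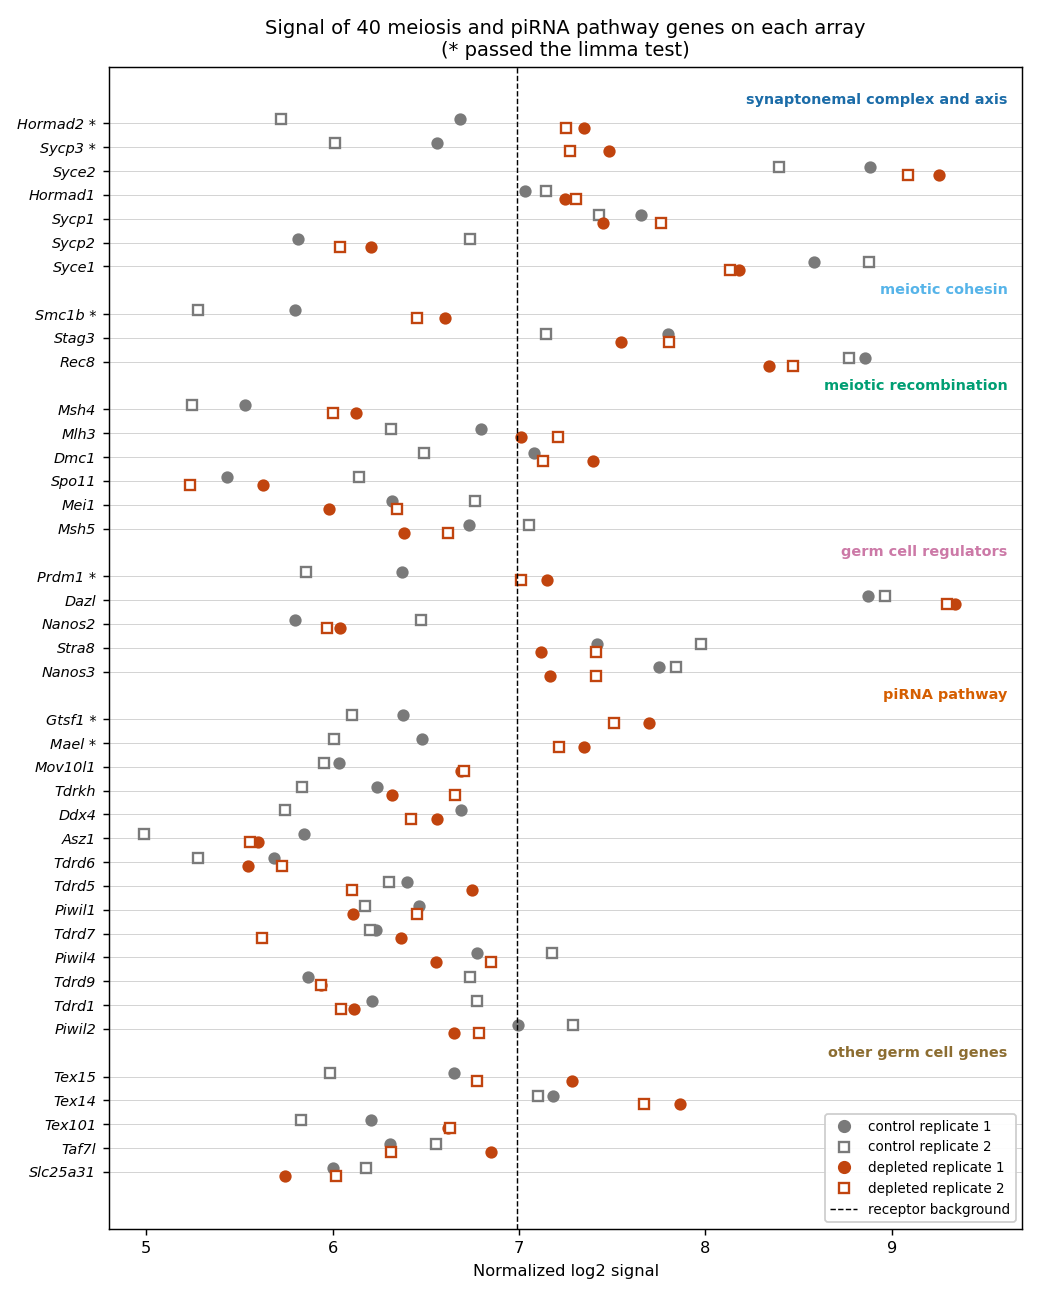
Normalized log2 signal (horizontal axis) of each of the 40 genes on each of the 4 arrays, grouped by role and ordered by fold change within a role; circles are replicate 1, squares replicate 2, grey control and red depleted, and the dashed line is the receptor background at 6.99. The 6 starred genes passed the limma test, and on each of them control replicate 2 is the lowest array and both depleted arrays lie to the right of both controls.

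Most members gave low signals. By the mean over the 4 arrays, 11 of 40 (27.5%) lay above the receptor background, beside 48.9% of all genes, and 19 did so in the brighter of their groups, beside 55.3% of all genes. All 6 members that rose had a control mean at or below the receptor background, and for 5 of them the depleted mean was above it, Smc1b being the exception. By the mean over the 4 arrays, 29 members lay at or below the receptor background and included all 6 that rose. Among all genes at that level, 3.4% rose. Of the 11 members above it, 0 rose or fell, beside 1.81% of all genes above it that rose and 16 of 9753 that fell. Tex14 was the 1 of the 11 that was higher by at least 1.5-fold without overlap, beside 12% of all genes above it. At an unadjusted p under 0.05, 2 of the 11 were higher and 1 lower (limma). For the 9753 genes above it the counts were 1566 (16.1%) and 940, so those of the members were near that background.

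**Figure D2:**
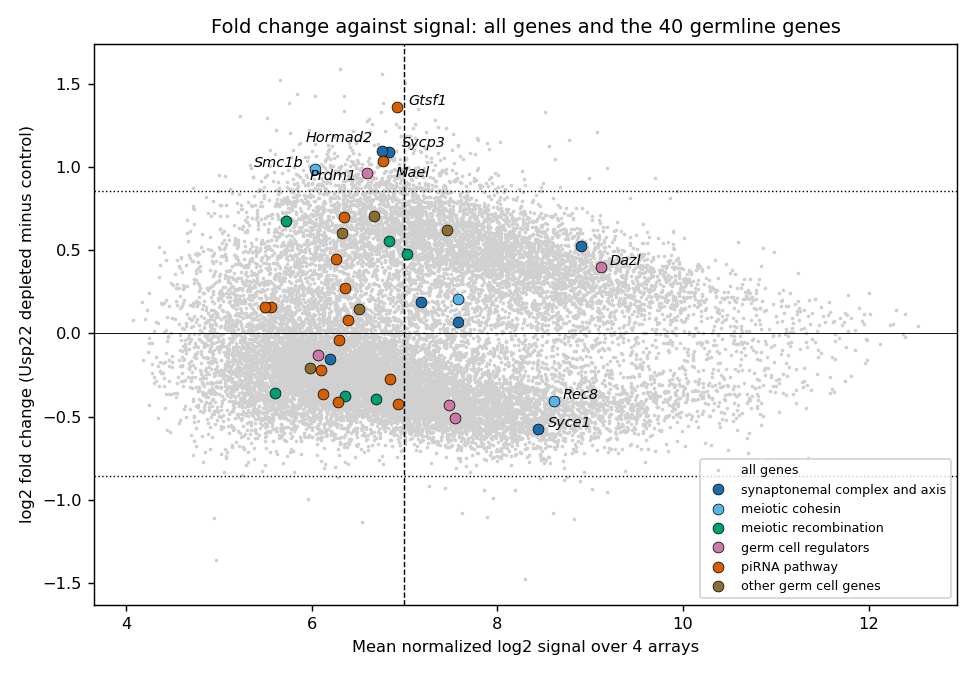
Log2 fold change (depleted minus control, vertical axis) against mean normalized log2 signal over the 4 arrays for all 19938 genes (grey) and the 40 members coloured by role; the dashed line is the receptor background at 6.99 and the dotted lines mark a change of 0.86 in either direction, the smallest that passed. The 6 labelled members above the upper dotted line lie left of the dashed line, and no member lies below the lower one.

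The synaptonemal complex and axis genes held 2 of the 6 increases. Hormad2, a HORMA-domain protein of unsynapsed axes, had a log2 signal of 6.68 and 5.72 in controls and 7.35 and 7.25 in depleted cells. It rose 2.14-fold (1.10 ± 0.27 on the log2 scale, fitted standard error, limma adjusted p = 0.0101), although its control arrays lay 0.96 apart. Without control replicate 2 the log2 difference was 0.62. Sycp3, a lateral element protein of the complex, had log2 signals of 6.56 and 6.01 in controls and 7.48 and 7.27 in depleted cells. Its means of 6.29 ± 0.39 and 7.38 ± 0.15 (SD, n = 2 each) gave a 2.13-fold increase (limma adjusted p = 0.0106), which was 0.82 on the log2 scale without control replicate 2.

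Syce2, a central element gene, was also higher on both depleted arrays, but by less than the test required. Its log2 signal was 8.88 and 8.40 in controls and 9.25 and 9.08 in depleted cells (log2 fold change 0.53, limma adjusted p = 0.225). Syce1, another central element gene, went the other way, with 8.58 and 8.88 in controls and 8.18 and 8.13 in depleted cells. Its log2 fold change of −0.58 was the lowest among the 40 members and did not pass (limma adjusted p = 0.191). The groups of both genes were without overlap, on opposite sides, and neither passed. Sycp1, the transverse filament gene, read 7.66 and 7.43 in controls and 7.45 and 7.76 in depleted cells, which overlap (0.07). Sycp2, a lateral element gene, read 5.82 and 6.74 in controls and 6.20 and 6.04 in depleted cells, with both depleted arrays between the controls (−0.15).

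Hormad1, the axis partner of Hormad2, depended on the probe set. On its brighter probe set the log2 signal was 7.03 and 7.14 in controls and 7.25 and 7.30 in depleted cells, without overlap but with a small difference (log2 fold change 0.19, limma adjusted p = 0.627). The second probe set, which the annotation assigns to the same gene, read 6.55 and 6.19 in controls and 7.74 and 7.43 in depleted cells. In a fit of all 28856 probe sets singly, added after its values were seen, it was 2.33-fold higher (log2 fold change 1.22, limma adjusted p = 0.00193, beside 2.70% of probe sets that rose). Averaged over both probe sets, the log2 difference was 0.70 (limma adjusted p = 0.111). The probe positions were not used here, so which of the 2 reads Hormad1 more faithfully was not tested.

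Of the meiotic cohesin genes, Smc1b passed the test. Smc1b, the meiosis-specific SMC subunit, had log2 signals of 5.80 and 5.28 in controls and 6.60 and 6.45 in depleted cells, all below the receptor background. The difference passed the test (0.99 on the log2 scale, limma adjusted p = 0.0244, and 0.73 without control replicate 2), but no fold is given for a signal at this level. Rec8, the meiotic kleisin, read 8.85 and 8.77 in controls and 8.34 and 8.47 in depleted cells, lower on both depleted arrays (log2 fold change −0.41, limma adjusted p = 0.316). Stag3, the meiotic stromalin, read 7.80 and 7.14 in controls and 7.55 and 7.81 in depleted cells, and the groups overlapped (0.21). Of the 3 cohesin genes, 1 rose and 0 fell, beside 2.62% and 0.105% of all genes.

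Of the 6 recombination genes, 0 rose and 0 fell, beside 2.62% and 0.105% of all genes, and a count of 0 among 6 is near that background. Msh4, whose product stabilizes crossover intermediates, read 5.53 and 5.24 in controls and 6.13 and 6.0 in depleted cells, higher without overlap but under the receptor background on all arrays (0.68 on the log2 scale, limma adjusted p = 0.129). Its partner Msh5 lay lower on both depleted arrays (log2 fold change −0.39, limma adjusted p = 0.331). The values of this pair had opposite signs, and neither passed. Mlh3, of the crossover-resolving nuclease, read 6.79 and 6.31 in controls and 7.01 and 7.21 in depleted cells (0.56, limma adjusted p = 0.204). Dmc1, the meiotic strand exchange recombinase, read 7.08 and 6.49 in controls and 7.40 and 7.13 in depleted cells (0.48, limma adjusted p = 0.258). Both lay higher without overlap, Dmc1 narrowly. Spo11, which makes the meiotic breaks, and Mei1, needed for them, had log2 fold changes of −0.36 and −0.38, with overlapping groups.

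Among the germ cell regulators, Prdm1 rose. Prdm1 encodes BLIMP1, a determinant of primordial germ cells that also acts in other lineages. Its log2 signal was 6.37 and 5.86 in controls and 7.15 and 7.01 in depleted cells, a 1.95-fold increase (log2 fold change 0.97, limma adjusted p = 0.0267) that was 0.71 without control replicate 2. Dazl, a germ cell RNA-binding protein, gave 8.87 and 8.96 in controls and 9.34 and 9.29 in depleted cells. Its replicates were close (SD 0.064 and 0.033, n = 2 each), and the log2 fold change of 0.40 was larger than the gap within either group but did not pass (limma adjusted p = 0.325). Nanos3, which protects primordial germ cells, read 7.75 and 7.84 in controls and 7.17 and 7.41 in depleted cells (−0.51, limma adjusted p = 0.237). Stra8, the retinoic acid-responsive gene of meiotic entry, read 7.416 and 7.97 in controls and 7.12 and 7.412 in depleted cells (−0.43, limma adjusted p = 0.297), with control replicate 1 barely above the higher depleted array. Nanos2, a male germ cell translational regulator, had a log2 fold change of −0.13 with overlapping groups. Prdm1 and Dazl therefore lay on the higher side, and Nanos3 and Stra8 on the lower.

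The piRNA pathway held the member with the largest increase. Gtsf1 encodes a small zinc finger protein that works with PIWI proteins in transposon silencing. Its deposited intensities were 85.3 and 76.5 in controls and 205 and 179 in depleted cells, and its normalized log2 signals 6.38 and 6.10 against 7.70 and 7.51. The gap between the groups was several times the gap within them, and the increase was 2.57-fold (1.36 ± 0.27 on the log2 scale, fitted standard error, limma adjusted p = 0.000622). Mael, a factor of piRNA-guided transposon repression, read 6.48 and 6.01 in controls and 7.35 and 7.21 in depleted cells. Its means of 6.25 ± 0.33 and 7.28 ± 0.097 (SD, n = 2 each) gave a 2.05-fold increase (limma adjusted p = 0.0166). Without control replicate 2 the log2 fold change was 1.23 for Gtsf1 and 0.80 for Mael.

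Gtsf1 and Mael were the 2 of 14 piRNA pathway genes that rose, and 0 fell, beside 2.62% and 0.105% of all genes. The median log2 fold change of the 14 was 0.12. Mov10l1, the helicase that starts piRNA processing, had close replicates. It read 6.03 and 5.95 in controls and 6.69 and 6.70 in depleted cells, all under the receptor background (0.70 on the log2 scale, limma adjusted p = 0.114). Among the PIWI genes themselves, none passed the test. Piwil2 read 6.99 and 7.29 in controls and 6.65 and 6.79 in depleted cells, lower on both (log2 fold change −0.42, limma adjusted p = 0.304), while Piwil4 (−0.27) and Piwil1 (−0.04) had overlapping groups. Of the Tudor-domain genes, Tdrkh lay higher without overlap (0.45) and Tdrd1 lower without overlap (−0.41). Tdrd5, Tdrd6, Tdrd7 and Tdrd9 had overlapping groups, with log2 fold changes of 0.08, 0.16, −0.22 and −0.36. The same held for Ddx4, the germ cell helicase (0.28), and Asz1, an anchor of piRNA factors at mitochondria (0.16). On Ddx4 and Asz1 control replicate 2 was the lowest array and control replicate 1 the highest, so both depleted arrays lay between the controls.

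The 5 further germ cell genes had the highest median of the roles, 0.61, although 0 of them passed. Tex15, required for meiotic recombination and transposon silencing in male germ cells, read 6.65 and 5.99 in controls and 7.28 and 6.78 in depleted cells (1.64-fold, limma adjusted p = 0.112). Tex14, of the bridges between germ cells, read 7.18 and 7.10 in controls and 7.86 and 7.67 in depleted cells (1.54-fold, limma adjusted p = 0.161). Tex101, a germ cell surface protein, read 6.21 and 5.83 in controls and 6.62 and 6.63 in depleted cells (0.61 on the log2 scale, limma adjusted p = 0.171), all under the receptor background. On all 3 the lower depleted array lay above the higher control. Taf7l, a germ cell paralog of a TFIID subunit, and Slc25a31, a germ cell ADP/ATP carrier, had log2 fold changes of 0.15 and −0.21 with overlapping groups.

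**Figure D3:**
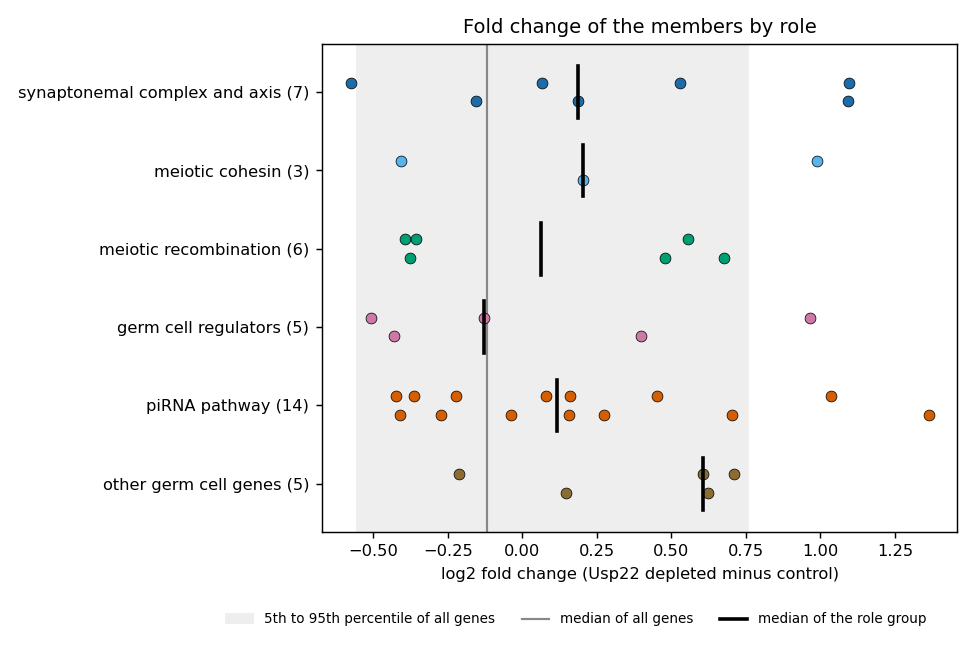
Log2 fold change (depleted minus control) of each member by role, with the number of genes in brackets; black bars are role medians, the grey line is the median of all genes at −0.12 and the grey band runs from their 5th to their 95th percentile (−0.55 to 0.76). Every role holds members on both sides of 0, and the 6 points right of the band are the members that rose.

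The calls changed with the array left out. Without control replicate 2, the array that stood apart, Gtsf1 alone passed among the members (limma adjusted p = 0.00618, beside 0.331% of all genes that rose), and the other 5 had limma adjusted p from 0.103 (Sycp3) to 0.205 (Hormad2). Without depleted replicate 1 or without depleted replicate 2, the calls of the members were lost, as were those of all other genes that rose. The log2 fold change of Gtsf1 was then 1.27 and 1.46. In these fits the lone array is assumed to vary like the remaining pair. Without control replicate 1, 17 members passed with higher and 10 with lower signal, beside 24.5% and 21.2% of all genes. Control replicate 2 was the lowest of the 4 arrays on 20 members and the highest on 13, beside 37.8% and 42.7% of all genes. It was also the lowest on all 6 that rose. For these 1 of the 2 controls had to be the lowest, so the share of all genes is no reference for them. In all, 8 members changed sign without control replicate 2 (Sycp1, Sycp2, Stag3, Nanos2, Ddx4, Tdrd6, Tdrd9 and Asz1). None of those 8 had passed. The part of this array in the results was otherwise not tested.

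The variance model and the scaling also bore on the count. With limma's intensity trend, Gtsf1, Hormad2, Mael and Sycp3 passed, beside 1.64% of all genes that rose, and with robust settings added the same 4 did, beside 1.91%. With the trend alone Prdm1 and Smc1b had limma adjusted p of 0.0673 and 0.0693. With no scaling between arrays Gtsf1 passed (log2 fold change 1.25, limma adjusted p = 0.00505), and the other 5 had limma adjusted p from 0.0586 (Hormad2) to 0.118 (Prdm1).

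**Figure D4:**
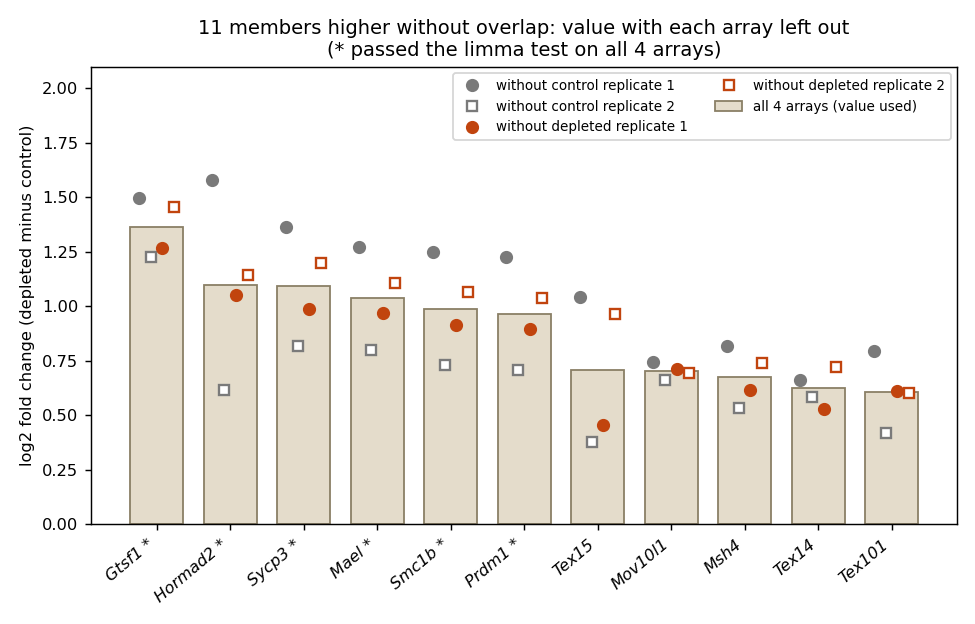
Log2 fold change (depleted minus control) of the 11 members that were higher without overlap by at least 1.5-fold; bars are the value from all 4 arrays, starting at 0, and points the value with 1 array left out. Gtsf1 keeps values from 1.23 to 1.5, while Hormad2 runs from 0.62 to 1.58.

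Of other genes of the same pathways, also listed with earlier results of these data known, 35 of 40 were measured. Of these 2 rose and 0 fell, beside 2.62% and 0.105% of all genes, with a median log2 fold change of 0.18. Sohlh2, a transcription factor of early germ cell differentiation, read 7.35 and 6.57 in controls and 8.12 and 8.01 in depleted cells (2.15-fold, limma adjusted p = 0.00934). Mybl1, the A-MYB factor that drives pachytene piRNA genes in testis, read 6.80 and 6.04 in controls and 7.55 and 7.14 in depleted cells (1.90-fold, limma adjusted p = 0.0340). Neither passed without control replicate 2, where their log2 fold changes were 0.72 and 0.55, or without either depleted array, and without control replicate 1 the list counted 16 higher and 5 lower by limma, beside 24.5% and 21.2% of all genes. Mybl1 also missed the threshold with no scaling (limma adjusted p = 0.121), with the intensity trend (0.0702), with robust settings (0.0527) and with both (0.0634). With the intensity trend the list counted 2 higher and 1 lower by limma, beside 326 and 286 of all 19938 genes. With robust settings added it counted 2 higher and 2 lower, beside 381 and 339. Of the 35, 9 (25.7%) lay higher by at least 1.5-fold without overlap and 0 lower, beside 12.1% and 3.35% of all genes.

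Among 20 genes listed as repressors of germline genes in embryonic stem cells, 0 rose and 0 fell by limma. The shares of all genes were 2.62% and 0.105%, and a count of 0 among 20 is near that background. At an unadjusted p under 0.05, 1 was higher and 1 lower, beside 15.4% and 6.63% of all genes. E2f6 (log2 fold change −0.03) and Mga (0.33) had overlapping groups, and Max lay higher without overlap (0.22). Of the DNA methyltransferase genes, Dnmt1 lay lower (−0.35) and Dnmt3b higher (0.40) without overlap, and Dnmt3a overlapped (−0.02). Without overlap 6 of the 20 lay higher and 9 lower, beside 27.4% and 33.3% of all genes. By sign 8 of the 20 were higher and 12 lower, beside 8498 and 11440 of all 19938 genes. The 4 with the lowest p were the polycomb ligase gene Rnf2 (0.64, limma adjusted p = 0.151), the imprint regulator Zfp57 (−0.55, 0.209), the deacetylase gene Hdac2 (0.50, 0.248) and the H3K9 methyltransferase gene Ehmt2 (−0.49, 0.251).

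Markers of other cells were examined beside these values. Of 8 primordial germ cell markers 1 rose, Prdm1, which is itself a member, beside 2.62% of all genes. Dnd1 (0.60) and Kit (0.38) lay higher without overlap and Nanos3 lower (−0.51), while Alpl (0.28), Dppa3 (0.18), Tfap2c (0.07) and Prdm14 (−0.11) had overlapping groups. By sign 6 of the 8 were higher and 2 lower, beside 8498 and 11440 of all 19938 genes. Their median log2 fold change was 0.23 for the 8 markers, and the part of such cells in the results was not tested. The median log2 signal of the 8 was 8.47 and 8.20 in controls and 8.50 and 8.42 in depleted cells. Of 6 measured markers of somatic gonad cells, 0 passed and all had a log2 fold change below 0 (median −0.35), as had 11440 of all 19938 genes. Of 8 fibroblast markers (median −0.28), 7 of primitive endoderm (−0.43) and 7 of trophectoderm (−0.43), 0 passed in either direction. Lower without overlap lay 4 of the 6 somatic gonad, 4 of the 8 fibroblast, 6 of the 7 primitive endoderm and 5 of the 7 trophectoderm markers. Higher without overlap lay 0, 1, 0 and 1 of them. The shares of all genes were 33.3% lower and 27.4% higher, and the part of such cells was not tested. Of 8 markers of cells resembling the 2-cell embryo, 3 were measured and 0 passed (median 0.32), while 2 lay higher and 0 lower without overlap. Over all genes 2.62% rose and 0.105% fell, so counts of 0 that passed in lists this short are near that background. At an unadjusted p under 0.05 over these lists, 2 primordial germ cell markers and 1 marker of the 2-cell state were higher (limma). At the same limit 2 fibroblast and 2 trophectoderm markers were lower. The shares of all genes were 15.4% higher and 6.63% lower.

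The promoters of the members were examined because many genes of this kind are known targets of repressors that bind E2F-like and E-box motifs. RefSeq promoter windows of 300 bases (250 before to 50 after the annotated start, GRCm38.p6) matched 36 of the 40 members, with 44 windows in all. The searched motifs were GCGGGA, an E2F6-like core, and CACGTG, the E-box of MAX partners, each on both strands. Matches to them can share a base at their ends, and share none in the stretches shown here. CACGTG occurred in the windows of 13 of 36 members (36.1%), beside 8.09% of all 27025 genes with a window. GCGGGA occurred in those of 14 members (38.9%), beside 22.05% of all genes. The members' windows were also richer in CpG, with a median of 19.5 CpG per window against 7.0 for all windows. Among windows with at least 15 CpG, a limit chosen after these values were seen, CACGTG was held by 12 of 26 members (46.2%) and 12.03% of all genes, and GCGGGA by 14 of 26 (53.8%) and 47.2%. A match describes letters and is no evidence of binding.

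The motifs were not shared by all members that rose. CACGTG was held by 2 of those 6 and by 11 of the other 30 with a window, and GCGGGA by 3 of 6 and 11 of 30. The 250 bases before the annotated start are shown for the 6 members that rose, and for Hormad1 because its probe sets disagreed, in lower case and read 5′ to 3′ toward the gene, with matches to GCGGGA (or its reverse complement TCCCGC) and to CACGTG in capitals. They lie in GRCm38.p6, Gtsf1 at chr15:103430428-103430677 (minus strand), Hormad2 at chr11:4441083-4441332 (minus strand), Sycp3 at chr10:88459337-88459586 (plus strand), Mael at chr1:166238745-166238994 (minus strand), Smc1b at chr15:85131958-85132207 (minus strand), Prdm1 at chr10:44458749-44458998 (minus strand) and Hormad1 at chr3:95559427-95559676 (plus strand).
Gtsf1: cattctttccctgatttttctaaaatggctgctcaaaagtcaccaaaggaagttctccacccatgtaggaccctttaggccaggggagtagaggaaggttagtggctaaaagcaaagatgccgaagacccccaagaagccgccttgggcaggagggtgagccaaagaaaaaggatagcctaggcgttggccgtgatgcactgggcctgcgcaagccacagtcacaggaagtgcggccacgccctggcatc
Hormad2: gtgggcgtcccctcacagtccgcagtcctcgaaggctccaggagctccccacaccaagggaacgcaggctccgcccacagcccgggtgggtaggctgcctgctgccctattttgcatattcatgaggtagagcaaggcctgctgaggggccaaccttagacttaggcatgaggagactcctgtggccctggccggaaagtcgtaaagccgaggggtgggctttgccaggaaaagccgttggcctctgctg
Sycp3: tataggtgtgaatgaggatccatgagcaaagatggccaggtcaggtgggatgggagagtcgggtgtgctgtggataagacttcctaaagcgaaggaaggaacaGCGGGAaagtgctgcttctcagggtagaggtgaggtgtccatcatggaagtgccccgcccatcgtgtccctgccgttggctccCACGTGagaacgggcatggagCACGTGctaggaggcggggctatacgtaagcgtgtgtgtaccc
Mael: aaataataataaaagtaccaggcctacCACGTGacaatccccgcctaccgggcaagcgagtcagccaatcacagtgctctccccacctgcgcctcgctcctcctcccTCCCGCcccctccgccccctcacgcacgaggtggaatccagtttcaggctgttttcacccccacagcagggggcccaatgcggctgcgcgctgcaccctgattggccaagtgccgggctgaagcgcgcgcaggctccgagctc
Smc1b: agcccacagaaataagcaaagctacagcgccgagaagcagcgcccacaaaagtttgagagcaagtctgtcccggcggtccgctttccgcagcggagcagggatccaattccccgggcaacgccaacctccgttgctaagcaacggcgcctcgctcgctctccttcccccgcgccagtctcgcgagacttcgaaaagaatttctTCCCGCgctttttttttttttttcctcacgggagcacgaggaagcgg
Prdm1: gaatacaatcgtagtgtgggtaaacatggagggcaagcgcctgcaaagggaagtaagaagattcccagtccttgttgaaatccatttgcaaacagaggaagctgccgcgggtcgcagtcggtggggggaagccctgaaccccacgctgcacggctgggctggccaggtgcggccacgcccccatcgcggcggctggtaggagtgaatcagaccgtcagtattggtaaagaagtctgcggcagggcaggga
Hormad1: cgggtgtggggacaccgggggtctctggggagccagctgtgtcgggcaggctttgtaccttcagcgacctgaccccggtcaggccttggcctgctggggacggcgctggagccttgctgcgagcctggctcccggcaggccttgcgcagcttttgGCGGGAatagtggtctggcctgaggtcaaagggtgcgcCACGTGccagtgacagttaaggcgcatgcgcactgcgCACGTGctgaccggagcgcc

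In these stretches Sycp3 held CACGTG 64 and 43 bases before the start and Hormad1 57 and 20 bases before it, while Mael held 1 copy 223 bases before it. GCGGGA began 147 bases before the start in Sycp3 and 95 in Hormad1, and its reverse complement 143 in Mael and 47 in Smc1b. The stretches of Gtsf1, Hormad2 and Prdm1 held neither motif, and Gtsf1, the member with the largest increase, held 7 CpG in its 250 bases against 25 for Smc1b.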

How the data were processed

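Per the labels' protocols, biotin-labelled cDNA of 4 samples (2 control, 2 Usp22 depleted) was hybridised to Affymetrix arrays of 1 colour. The authors deposited 1 linear intensity per probe set and array for 28856 probe sets, with a lowest value of 16.0 on every array. How they summarised and normalized the probes is not given in the sources used here. Intensities were log2-transformed, then quantile-normalized across the 4 arrays, with no filter on dim genes. GEO's platform annotation gave 1 symbol to 21789 probe sets, several to 1621 and none used here to 5446. The brightest probe set per gene left 19938 genes, fitted with limma 3.58.1 in R 4.3.3 (lmFit, eBayes, 2 groups, two-sided, Benjamini-Hochberg over all genes). Residual degrees of freedom were 2 and the prior degrees of freedom infinite. The fit was tested on simulated data. Alternatives covered scaling, variance model, dim-gene filters, probe set rule, an offset of 16, a replicate block and each array left out.

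The members, the lists and the tests were chosen with earlier results of these data known, including the increase of Gtsf1. Members that passed, that lay apart by at least 1.5-fold without overlap, or that were above the receptor background in their brighter group are given on every array (23 of 40), and the others mostly by 1 value. Of the other germline and repressor genes, those that passed are given, or else the 4 with the lowest p, and a few more were added after their values were seen. Promoter sequences come from RefSeq (GRCm38.p6), and in 1714 of 1714 overlapping windows of opposite strand the sequences were reverse complements.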

Additional observations from a re-analysis of the deposited data

How the results depend on the processing

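There were 2 arrays a group, and by their mean 29 of 40 members lay at or below the receptor background. The count of 6 members that rose (limma) was also 6 with each array centred on its median, robust settings, the mean of the probe sets, the offset and the replicate block, 5 with the dimmest 0.25 of genes left out, and 4 with the intensity trend, alone or with robust settings. It was 1 with no scaling, and 0 with the dimmer 0.5 of genes left out or only genes above the receptor background, where 11 members were tested and none of the 6 remained. With 1 array left out it ran from 0 to 17, and the count that fell, 0 otherwise, from 0 to 10. The members' median of 0.16 was 0.018 with no scaling and ran from 0.13 to 0.27 with 1 array left out.

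For all genes, 523 rose and 21 fell. The counts were 75 and 10 with no scaling, 927 and 20 with median centring, 326 and 286 with the trend, 295 and 11 with robust settings, 381 and 339 with both, 739 and 36 without the dimmest 0.25, 692 and 148 without the dimmer 0.5, 674 and 149 above the receptor background, 659 and 47 with the offset and 856 and 42 with the replicate block. With 1 array left out they ran from 0 to 4884 and from 0 to 4236. Usp22 kept its direction, from −1.15 to −1.09 with 1 array left out, and did not pass without either depleted array. Among members given on every array, Sycp1 ran from −0.089 to 0.22 with 1 array left out, below 0 without either array numbered 2, and Stag3 from −0.12 (control replicate 2 left out) to 0.53. The causes were not tested. The replicate numbers are not stated to pair samples, and deviations of same-numbered arrays correlated at 0.10 across genes. The replicate block changed no call among the members.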
